A study of Arabidopsis thaliana with 12 samples.

Results

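Small RNA of Arabidopsis thaliana inflorescences was compared directly between urt1-1 and heso1-1, mutants of the uridylyltransferase genes URT1 and HESO1. The comparison used the 3 urt1-1 and 3 heso1-1 libraries and every 100-bp bin of the genome with a mean of at least 1 RPM (reads scaled to library size) over those 6 libraries. Of 152484 listed bins, 39043 (25.6%) met that minimum, and they held 90.8% to 93.8% of the listed RPM of each library. The bins at the edge of the minimum had means of 1.000004 RPM just inside and 0.999994 RPM just outside. Of the bins tested, 3820 had a urt1-1 mean under 1 RPM and 2294 had a heso1-1 mean under 1 RPM, so they passed through the other mutant. The series also holds 3 libraries of ntp4-1, a mutant of NTP4, and 3 of the wild type Col-0, which are given below only as levels. By the labels all 4 groups are untreated plants of the ecotype Col-0, kept in long days, and differ in genotype. They state neither plant age nor pooling, and the separate samples of a group are known only as bioreplicates, so p-values measure the spread between these samples. Small RNA reads do not measure the transcripts of the mutated genes. No bin in the gene body of either HESO1 (AT2G39740) or URT1 (AT2G45620) is among those listed (0 bins each), so the genotypes could not be checked from these values.

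HESO1 and URT1 both add uridines to the 3′ ends of RNA. HESO1 is the main enzyme that tails miRNAs which lack 3′ methylation, and URT1 also tails them, with its own preference among miRNAs. URT1 in addition tails shortened poly(A) ends of mRNAs, and its loss is known to let some mRNAs feed into siRNA production. Many small RNAs of inflorescences are siRNAs of RNA-directed DNA methylation, which come from transposons and other repeats. miRNAs and the secondary siRNAs that some of them trigger act on mRNAs instead.

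The sequences behind the main results are shown first. Both bins that passed the test lie on chromosome 1 and share a stretch of 58 bp on opposite strands, given in capitals (plus strand, reference TAIR10.1). They are shown because one was higher and the other lower in urt1-1.
chr1:3980401-3980500: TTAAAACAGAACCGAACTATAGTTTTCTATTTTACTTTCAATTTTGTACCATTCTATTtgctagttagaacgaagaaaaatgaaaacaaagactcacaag
chr1:20033201-20033300: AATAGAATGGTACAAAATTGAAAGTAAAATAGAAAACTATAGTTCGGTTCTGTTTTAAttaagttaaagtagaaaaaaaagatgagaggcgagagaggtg

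The miRNAs that the miRNA results turn on are miR165 and miR166, which repress HD-ZIP III transcription factor genes of leaf polarity and meristems. They are shown with miR827, a phosphate-starvation miRNA, miR161, which targets PPR genes, and miR390, the trigger of TAS3 siRNAs. Capitals mark the seed, bases 2 to 8 from the 5′ end, and the sequences were read from the RefSeq annotation of TAIR10.1.
miR166a-3p: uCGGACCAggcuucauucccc
miR165a-3p: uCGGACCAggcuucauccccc
miR827: uUAGAUGAccaucaacaaacu
miR161.1: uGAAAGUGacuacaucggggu
miR390a-5p: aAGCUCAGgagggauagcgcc
miR165a-3p and miR166a-3p share a seed and differ by C17U, counted from the 5′ end with miR165a-3p first. The miR165a-3p sequence is that of 2 annotated mature miRNAs, and the miR166a-3p sequence is that of 7, so reads of one precursor cannot be told from those of another by the mature sequence.

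The deposited values imply 3696436 to 7753962 reads per urt1-1 library and 2761330 to 11191516 reads per heso1-1 library. The listed bins hold 43.6% to 60.7% of these reads in urt1-1 and 47.3% to 59.4% in heso1-1. heso1-1 replicate 3 was the shallowest library, where 1 read is worth 0.362 RPM. By the rank correlation of the bins tested, the 12 libraries of the series were put into 2 sets that no label names. urt1-1 replicates 1 and 3 stood with heso1-1 replicate 1, and urt1-1 replicate 2 stood with heso1-1 replicates 2 and 3. Spearman's rho was 0.812 and 0.820 between mutants within the first set, but 0.583 and 0.623 between urt1-1 replicate 2 and the other urt1-1 libraries. The split was not clean for heso1-1 replicate 2, at 0.732 with heso1-1 replicate 1 of the other set and 0.720 with heso1-1 replicate 3 of its own. Each set holds too few libraries of either mutant for a test of its own, so a fit with the set as a term is given beside the results it moves.

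The direct comparison separated the mutants at very few places. By limma on log2(RPM + 0.5) with Benjamini-Hochberg adjustment, 1 bin was higher and 1 bin lower in urt1-1 at an adjusted p under 0.05, which is 0.00512% of the bins tested, or 0.00256% in each direction. At an unadjusted p under 0.05 there were 318 bins higher (0.814%) and 515 lower (1.32%) in urt1-1, 2.13% of the bins tested in all. The groups did not overlap in 743 bins that were higher in urt1-1 (1.9%) and in 1503 that were lower (3.85%). Over all bins the median log2 fold change, urt1-1 over heso1-1, was -0.16. It was 0.01 with TMM scaling and 0.03 with the library set as a term, so small shifts of a class are read against that median. The call of both bins was lost with TMM scaling, and on the recovered reads edgeR called 0 bins (1143 had an unadjusted p under 0.05) while DESeq2 called 33.

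**Figure D1:**
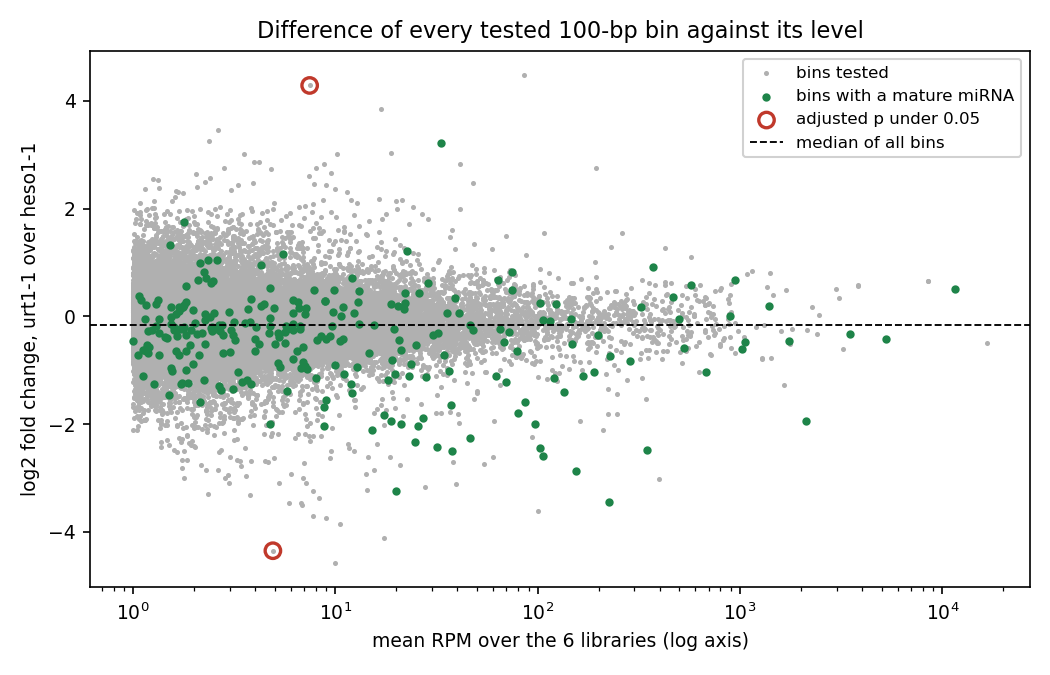
Each point is a bin, with its mean RPM over the 6 libraries (log axis) against its log2 fold change, urt1-1 over heso1-1. The 2 circled bins passed the test, at 4.29 and -4.35, and the 261 bins with a mature miRNA, in green, have a median of -0.31, below that of all bins at -0.16 (dashed).

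The bin that was higher in urt1-1 lies in the gene AT1G11785, outside its exons, and in the promoter of ADT1 (AT1G11790), which encodes an arogenate dehydratase of phenylalanine synthesis. It held 24.1, 6.76 and 13.2 RPM in urt1-1 libraries, against 0, 0.268 and 0.362 RPM in heso1-1 libraries. The heso1-1 values are 0, 3 and 1 reads, and the urt1-1 values are 187, 25 and 102 reads. The groups did not overlap, and the bin rose by 4.29 ± 0.53 in urt1-1 (log2 fold change ± SE; adjusted p = 0.0455 by limma). The ntp4-1 libraries held 0, 2.84 and 5.85 RPM there, and Col-0 libraries held 24.6, 9.47 and 5.13 RPM, overlapping urt1-1. This bin was called by few of the alternatives: no filter on low values, DESeq2, and leaving out urt1-1 replicate 2. With the library set as a term its adjusted p by limma was 0.0834.

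The bin that was lower in urt1-1 lies 585 bp upstream of AT1G53660, a protein-coding gene. It held 0 RPM in all 3 urt1-1 libraries, against 9.36, 8.13 and 12.0 RPM in heso1-1 libraries (adjusted p = 0.0133 by limma). A count of 0 allows up to 3 reads, which is 0.387, 0.812 and 0.389 RPM in these urt1-1 libraries. Against the mean of those limits the bin was at least 18.5-fold lower in urt1-1. The ntp4-1 libraries held 5.27, 1.82 and 0 RPM there, and Col-0 libraries held 13.3, 14.4 and 8.24 RPM, overlapping heso1-1. Its adjusted p was 0.00775 by limma with the library set as a term. The call held in 6 of 16 alternatives, and was lost among others with a pseudocount of 0.1, all 12 libraries in the fit, edgeR, and on leaving out urt1-1 replicate 1 or 3 or any heso1-1 library (adjusted p between 0.0594 and 0.178 by limma for these libraries).

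The 2 bins share sequence with each other and with further bins. Of the 21-mers of the AT1G11785 bin 65.0% occur elsewhere in the genome, and of those of the bin upstream of AT1G53660 85.0% do. Another copy lies in the bin chr5:19001901-19002000, in the promoter of AT5G46830. Summed over both bins and the 5 further listed bins that share a 21-mer with them, the level was 26.1, 15.4 and 14.5 RPM in urt1-1, against 14.2, 13.6 and 13.4 RPM in heso1-1. That sum was chosen after the values were seen, and the mean of urt1-1 was 0.43 higher on the log2 scale (exact two-sided permutation test, p = 0.1, the smallest that 3 against 3 libraries allow). Together the copies thus differed far less than either bin alone. How the authors placed reads that match several places is not given in the sources used here.

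**Figure D2:**
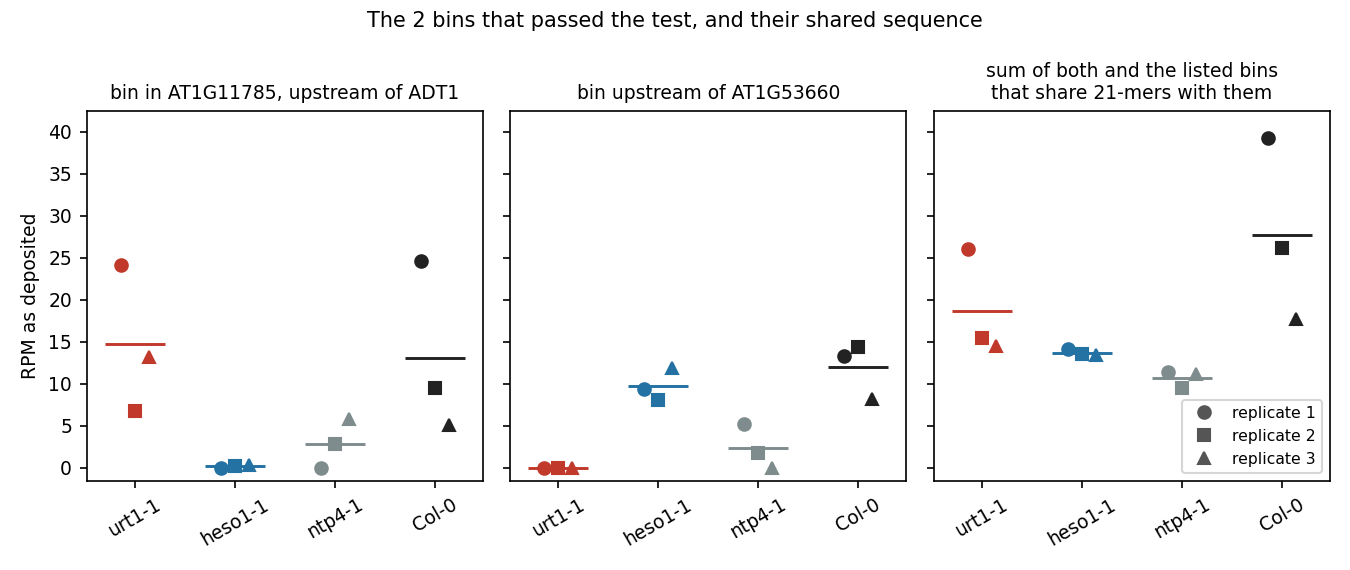
RPM in each library, with the group mean as a bar, for the 2 bins that passed the test and for the sum of the 7 bins that share sequence. urt1-1 is above heso1-1 in the first bin, at 0 in the second, and at 14.5 to 26.1 RPM against 13.4 to 14.2 RPM in the sum.

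Repeated sequence was more frequent among all bins with a small p. On average 45.0% of the 21-mers of the nuclear and plastid bins with an unadjusted p under 0.05 occur elsewhere, against 31.6% in the other bins tested. The gap was wider in bins of transposable elements, at 58.6% against 38.6%, and in intergenic bins, at 46.3% against 22.6%. In miRNA bins the means were 11.2% and 12.8%. The gene pair AT5G42955 and AT5G42957, neighbours on chromosome 5, gave opposite differences in a like way. AT5G42955 held 0, 4.599 and 1.82 RPM in urt1-1, against 44.5, 18.4 and 17.0 RPM in heso1-1, while AT5G42957 held 61.1, 36.8 and 44.1 RPM in urt1-1, against 14.8, 22.3 and 13.8 RPM in heso1-1. Their sum was 61.1, 41.4 and 45.9 RPM in urt1-1, against 59.3, 40.7 and 30.8 RPM in heso1-1, which overlap (exact permutation test, p = 0.5). The pair was picked after its values were seen, and its sum leaves out other copies. A bin in AT5G42565 shares 82.5% of the 21-mers of the AT5G42955 bin chr5_172319. That copy was also lower in urt1-1, at 0, 7.85 and 0 RPM, against 16.5, 13.4 and 5.07 RPM in heso1-1. Summed over chr5_172319 and every listed bin that shares a 21-mer with it (22 bins), the mutants overlapped (exact permutation test, p = 0.2). Fitted on their own, the 11396 bins in which no 21-mer is repeated gave no call by limma (0 bins). In that separate fit 263 of them (2.31%) had an unadjusted p under 0.05. In the fit of all bins, where 2.13% of all bins did, 209 of these bins had an unadjusted p under 0.05 and 11187 did not.

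Among bins with no repeated 21-mer, an intergenic stretch of 4 adjacent bins on chromosome 3 held low levels in urt1-1. The bin chr3:21509501-21509600 held 0.258, 0.541 and 0.259 RPM in urt1-1, against 16.9, 20.998 and 1.81 RPM in heso1-1, and did not pass (log2 fold change -3.50 ± 0.72 SE, adjusted p = 1.00 by limma). Its neighbour held 1.16, 1.35 and 0.648 RPM in urt1-1, against 28.9, 24.9 and 0.362 RPM in heso1-1. Col-0 libraries held 21.5, 33.1 and 23.6 RPM in the first of these bins and 33.0, 29.9 and 29.7 RPM in the second. heso1-1 replicates 1 and 2 were thus near Col-0, and heso1-1 replicate 3 was near urt1-1. Without heso1-1 replicate 3 both bins passed, with adjusted p-values of 0.0287 and 0.0431 by limma. In the opposite direction, the bin 194 bp upstream of AT1G55660 held 3.22, 8.66 and 3.76 RPM in urt1-1, against 0, 0.0894 and 1.09 RPM in heso1-1. Col-0 held 0, 0.275 and 0 RPM in that bin, below all urt1-1 values, and the difference between the mutants did not pass (adjusted p = 1.00 by limma).

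No feature class took a share of the listed RPM that separated the mutants. The share of the listed RPM in genes was 37.6% ± 0.37 in urt1-1 and 37.9% ± 2.45 in heso1-1 (SD, n = 3 each), and that in transposable elements was 25.4% ± 2.21 in urt1-1 and 25.7% ± 3.46 in heso1-1. Promoters held 34.2% ± 2.13 in urt1-1 and 32.8% ± 0.767 in heso1-1, and miRNA bins held 6.99% ± 1.45 in urt1-1 and 7.22% ± 0.932 in heso1-1. A bin counts in each class it is listed in. The tests of the 7 shares gave no call (exact two-sided permutation tests, p between 0.4 and 0.9, adjusted p = 0.9 each, with 0.1 the smallest possible). In these whole-tissue samples, fewer cells of a type and less small RNA per cell cannot be told apart.

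Transposable elements gave 21907 bins tested, more than any other class, with a median log2 fold change of -0.15, 130 bins higher and 245 lower at an unadjusted p under 0.05, and 0 called. Genes gave 12095 bins with a median of -0.11, promoters 13011 with -0.17, and intergenic bins 7138 with -0.20. With TMM scaling these medians were 0.02 for transposable elements, 0.07 for genes, 0.01 for promoters and -0.02 for intergenic bins. Each of the 5 nuclear chromosomes had a median between -0.17 and -0.15. The miRNA class stood lowest, with a median of -0.31 over 261 bins, and had 4 bins higher and 19 lower at an unadjusted p under 0.05, which is 8.81% of its bins, against 2.13% of all bins. The groups did not overlap in 2 miRNA bins that were higher in urt1-1 (0.766%, against 1.9% of all bins) and in 14 that were lower (5.36%, against 3.85% of all bins). With the library set as a term the miRNA median was -0.02, and it lay between -0.71 (without urt1-1 replicate 2) and -0.08 (without urt1-1 replicate 3) on leaving out a library.

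**Figure D3:**
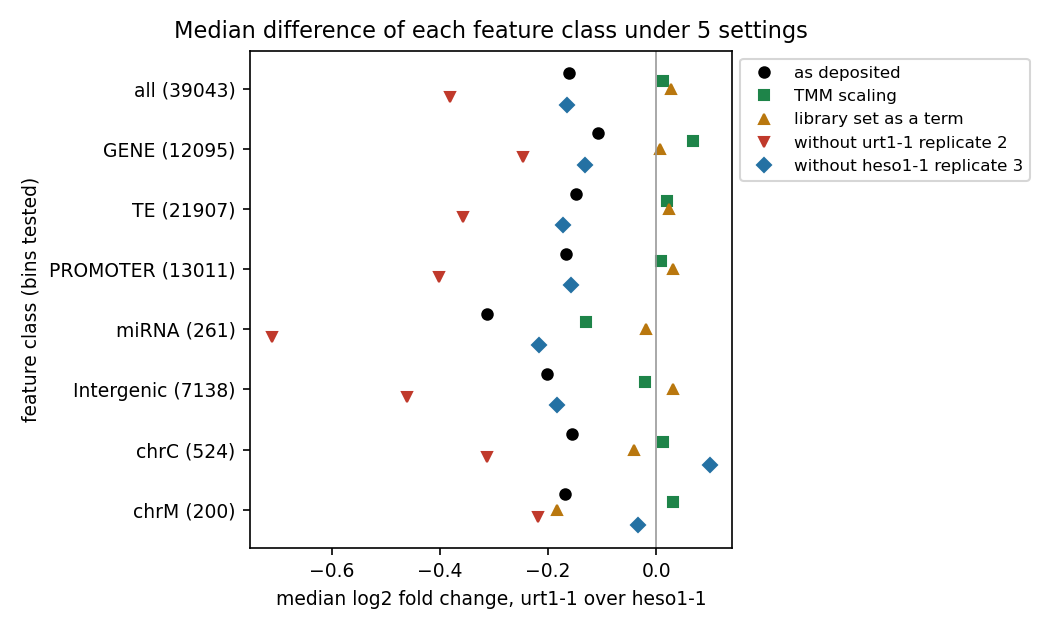
Median log2 fold change, urt1-1 over heso1-1, of the bins tested in each feature class under 5 settings, with the number of bins beside the class. The median of all bins lies between -0.38 and 0.03, and the miRNA class is lowest in every setting but the library set as a term, at -0.31 as deposited and -0.71 without urt1-1 replicate 2.

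miR165 and miR166 held lower levels in urt1-1 than in heso1-1 in most bins, short of the test over all bins. The miR166a-3p bin held 999.7, 518 and 754 RPM in urt1-1, against 1524, 2194 and 6688 RPM in heso1-1. The groups did not overlap, the difference was -1.95 ± 0.49 (log2 fold change ± SE), and it did not pass over all bins (unadjusted p = 0.00164, adjusted p = 1.00 by limma). The ntp4-1 libraries held 195, 293 and 226 RPM there, and Col-0 libraries held 1296, 2007 and 2226 RPM. heso1-1 replicates 1 and 2 thus lay in the Col-0 range, heso1-1 replicate 3 was above it, and urt1-1 lay between ntp4-1 and Col-0. The miR165a-3p bin held 64.6, 28.7 and 38.4 RPM in urt1-1, against 89.7, 149 and 147 RPM in heso1-1, again without overlap. The miR165b bin held 16.0, 33.8 and 12.3 RPM in urt1-1, against 46.0, 75.6 and 457 RPM in heso1-1.

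Of the 12 miR165 and miR166 bins tested, 11 had a log2 fold change below 0, 5 had an unadjusted p under 0.05 and 0 passed after adjustment. Over all bins 63.7% had a log2 fold change below 0 and 2.13% an unadjusted p under 0.05. The groups did not overlap in 5 of the 12 bins, all lower in urt1-1, as in 3.85% of all bins. The summed level was 1318, 789 and 1026 RPM in urt1-1, against 1945, 2717 and 8452 RPM in heso1-1. heso1-1 replicate 3 was the highest of the 6 libraries in 8 of the bins. The median over the 12 bins was -1.32 with all libraries, -0.94 without heso1-1 replicate 3 and -1.59 with the library set as a term. Apart from those of 5p arms, the bins share their mature sequence within a family, so the 12 values are not independent.

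**Figure D4:**
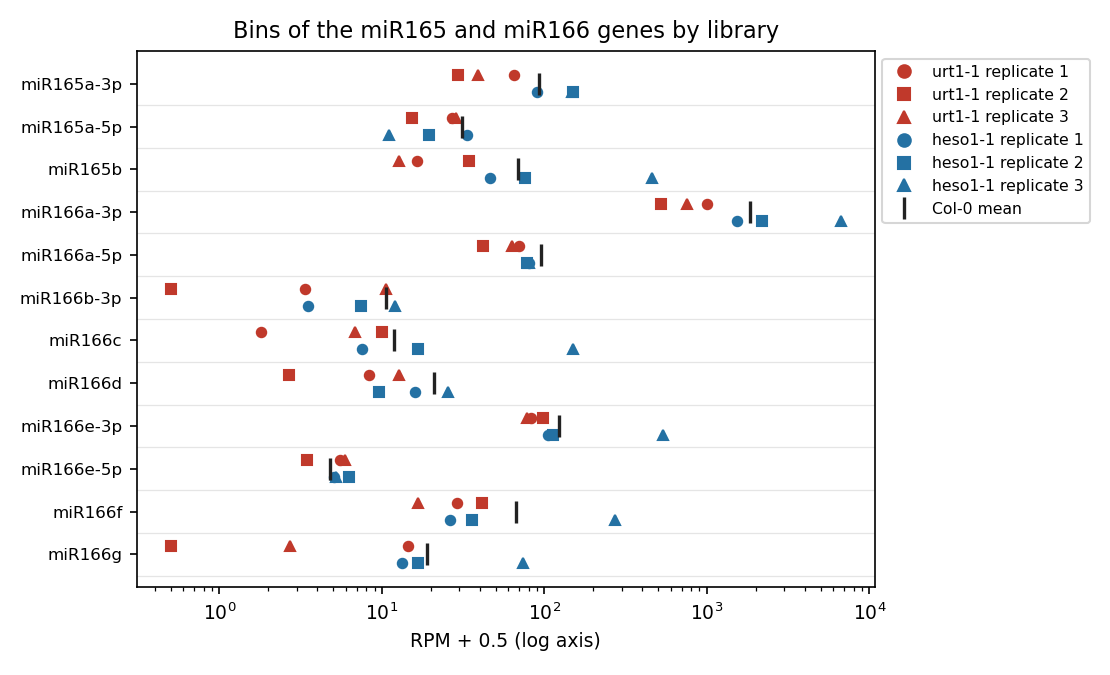
RPM + 0.5 (log axis) of each of the 12 tested miR165 and miR166 bins in every urt1-1 and heso1-1 library, with the Col-0 mean as a black bar. The urt1-1 points lie left of the heso1-1 points in the 3p bins of miR165a, miR166a and miR166e. They also do so in the miR165b and miR166a-5p bins, while the 5p bins of miR165a and miR166e overlap.

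Other miRNAs that were low in urt1-1 fall in several families. The miR827 bin held 4.26, 14.1 and 4.54 RPM in urt1-1, against 28.2, 18.9 and 79.3 RPM in heso1-1, with no overlap (unadjusted p = 0.00241 by limma). Col-0 held 0.539, 4.67 and 6.03 RPM of it, so here heso1-1 was the mutant away from Col-0. The miR161 bin held 363, 757 and 292 RPM in urt1-1, against 861, 935 and 846 RPM in heso1-1. The bin of miR156h, of the family that represses SPL genes of phase change, held 24.0, 27.3 and 20.6 RPM in urt1-1, against 60.3, 47.1 and 39.8 RPM in heso1-1. None of these passed after adjustment (adjusted p = 1.00 each by limma). The miR390a-5p bin held 28.1, 81.2 and 11.4 RPM in urt1-1, against 47.6, 170 and 142 RPM in heso1-1, which overlap.

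Of the 261 miRNA bins, the 4 that were higher at an unadjusted p under 0.05 are 1.53%, against 0.814% of all bins. The miR169g bin, of a family that represses NF-YA genes, held 57.3, 74.4 and 26.1 RPM in urt1-1, against 8.02, 32.9 and 0 RPM in heso1-1 (unadjusted p = 0.0127, adjusted p = 1.00 by limma). The most abundant miRNA bin, miR158a, held 12422, 15287 and 11876 RPM in urt1-1, against 9212, 14209 and 5952 RPM in heso1-1, and these overlap. miR159a, which represses GAMYB-like genes, held 3099, 10422 and 1622 RPM in urt1-1, against 2635, 5949 and 7955 RPM in heso1-1. Its high values are those of urt1-1 replicate 2 and heso1-1 replicates 2 and 3, one of the 2 library sets. The miR162b bin, of the miRNA that targets DCL1, had a log2 fold change of 0.00, at 842, 838 and 959 RPM in urt1-1, against 1071, 1029.7 and 616 RPM in heso1-1.

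By list, the conserved miRNA families had 101 bins tested with a median log2 fold change of -0.68, against -0.16 over all bins. At an unadjusted p under 0.05, 1 was higher (0.990%, against 0.814% of all bins) and 16 were lower (15.8%, against 1.32% of all bins), and 0 were called. The families with developmental targets had 74 bins with a median of -0.86, and the triggers of secondary siRNAs had 13 bins with -0.96. With the library set as a term these medians were -0.27, -0.35 and -0.22, and all bins were at 0.03. The medians of the conserved, developmental and trigger lists were -1.20, -1.45 and -1.46 without urt1-1 replicate 2, and -0.36, -0.50 and -0.46 without urt1-1 replicate 3. The nutrient families had 18 bins with a median of -0.05, which was 0.12 with TMM scaling. Of these 1 was higher and 4 were lower at an unadjusted p under 0.05 (27.8% in all), and 3 were lower without overlap (16.7%, against 3.85% of all bins). The families that target the small RNA machinery had 7 bins with a median of -0.16, which was 0.04 with TMM scaling. No member of the last list had an unadjusted p under 0.05 in either direction (limma, 0 called).

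The 2 arms of a precursor could be compared where they lie in different bins. Of 33 precursors tested, limma called 0 for the log2 ratio of 3p to 5p, 19 had a lower and 14 a higher ratio in urt1-1, and the median difference was -0.06. Of these, 2 had an unadjusted p under 0.05 (6.06%), miR165a and miR398b. The log2 ratio of miR165a was 1.27, 0.92 and 0.44 in urt1-1, against 1.43, 2.94 and 3.75 in heso1-1. The difference was -1.83 ± 0.79 (SE, adjusted p = 0.692 by limma). The 5p bin held 26.4, 14.9 and 28.1 RPM in urt1-1, against 33.0, 18.9 and 10.5 RPM in heso1-1, which overlap. The log2 ratio of miR398b, a copper-responsive miRNA, was -3.74, -4.26 and -3.78 in urt1-1, against -0.17, -2.54 and -3.15 in heso1-1. It was the one ratio called with the library set as a term (adjusted p = 0.0249 by limma), and its 3p bin held at most 5.57 RPM in any of the 6 libraries. The log2 ratio of miR166a was 3.83, 3.64 and 3.57 in urt1-1, against 4.24, 4.82 and 6.38 in heso1-1, without overlap and with an unadjusted p of 0.0839 by limma.

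Secondary siRNAs from TAS loci, which miR173 and miR390 set off, gave 0 calls by limma, and none at an unadjusted p under 0.05, among the 7 loci tested. TAS1C held 3922, 2842 and 2671 RPM in urt1-1, against 2506, 2491 and 1772 RPM in heso1-1, with no overlap (log2 fold change 0.48 ± 0.37 SE, adjusted p = 0.999 by limma). The locus TASIR-ARF did not overlap either, at 149.6, 88.5 and 86.9 RPM in urt1-1, against 61.6, 64.8 and 78.9 RPM in heso1-1. Non-overlap upward was met in 3.07% of all 6001 gene loci tested. TAS2 held 2017, 2444 and 1389 RPM in urt1-1, against 1224, 1952 and 2783 RPM in heso1-1. The PPR genes with secondary siRNAs had 13 loci tested, 0 called, and a median log2 fold change of 0.29, against -0.10 over all loci. Their median was -0.03 without heso1-1 replicate 1.

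The auxin receptor genes, which miR393 sets to make secondary siRNAs, had 3 loci tested with a median of 0.91 and 0 called. The median was 0.39 without heso1-1 replicate 1 and 1.70 without heso1-1 replicate 3. AFB3 held 40.6, 74.1 and 26.6 RPM in urt1-1, against 10.9, 15.2 and 45.3 RPM in heso1-1, and AFB2 held 23.9, 46.0 and 18.2 RPM in urt1-1, against 7.47, 13.2 and 31.9 RPM in heso1-1. In both, heso1-1 replicate 3 lay within the urt1-1 range while the other heso1-1 libraries lay below it. Of the 13 genes of the small RNA pathway, 4 were tested, with a median of 0.03 (-0.24 without urt1-1 replicate 2) and 0 called. AGO1 (AT1G48410), picked here because it is the main miRNA effector, held 8.51, 9.20 and 6.48 RPM in urt1-1, against 4.35, 5.45 and 9.78 RPM in heso1-1.

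Over whole gene loci, for which the bins in each gene body were added, limma and edgeR called 0 of 6001 and DESeq2 called 11. By limma there were 103 higher (1.72%) and 116 lower (1.93%) in urt1-1 at an unadjusted p under 0.05 (3.65% in all). The 11 included MIR827 and MIR165b on the lower side and AGL91, a MADS-box gene, on the higher side. They also included AT3G11285, at 0 RPM in every urt1-1 library and 0, 0 and 22.8 RPM in heso1-1. That call rests on heso1-1 replicate 3, the library that was also highest for MIR165b (56.3, 79.8 and 466 RPM in heso1-1). By kind of locus the counts at that unadjusted p were as follows, and no difference between kinds was tested. Protein-coding genes had 76 higher and 30 lower of 2161 tested, transposable element genes 12 higher and 30 lower of 2747, tRNA genes 8 higher and 30 lower of 264, and miRNA genes 2 higher and 14 lower of 137. These counts are of single loci that did not pass the test, and tRNA genes share sequence among copies. There was no overlap between the groups in 184 loci that were higher in urt1-1 (3.07%) and in 244 that were lower (4.07%).

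A list of 25 loci, most of them protein-coding mRNAs, is described next. They were listed because earlier results of these data had them higher in urt1-1 than in Col-0. The list was thus chosen on the same urt1-1 and Col-0 libraries, and its direction here is not independent evidence. Of its 25 loci, 23 were tested against heso1-1. All 23 had a positive log2 fold change, the urt1-1 mean RPM was above the heso1-1 mean in 21, 16 had an unadjusted p under 0.05, 0 passed after adjustment, and the median was 1.45, against -0.10 over all loci. Over all loci 40.4% had a positive log2 fold change and 59.6% a negative one. Their summed level was 419, 396 and 265 RPM in urt1-1, against 155, 146 and 298 RPM in heso1-1, 40.4, 90.2 and 103 RPM in ntp4-1, and 21.8, 23.5 and 24.6 RPM in Col-0. The heso1-1 mean was above the Col-0 mean in all 23, and all heso1-1 libraries were above all Col-0 libraries in 15. The choice of the list used the Col-0 values, and the share over all loci is not given. The level of heso1-1 beside Col-0 is thus a description only.

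EBF1, the F-box gene that turns over EIN3 in ethylene signalling, held 40.8, 40.0 and 26.6 RPM in urt1-1, against 8.91, 2.23 and 34.0 RPM in heso1-1. Col-0 held 0.809, 1.24 and 1.21 RPM there. GRF5, a growth-regulating factor of leaf size, held 69.3, 36.5 and 21.9 RPM in urt1-1, against 18.8, 1.34 and 35.5 RPM in heso1-1. In both genes heso1-1 replicate 3 reached the urt1-1 range. The log2 fold change of EBF1 was 1.89 ± 0.76 (SE, adjusted p = 0.999 by limma).

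Genes at lower levels followed. SMXL4 (AT4G29920), a SMAX1-like gene of phloem formation, held 6.84, 6.76 and 3.76 RPM in urt1-1, against 0.669, 0.0894 and 4.35 RPM in heso1-1. BRI1, the brassinosteroid receptor, held 5.29, 10.01 and 3.63 RPM in urt1-1, against 1.56, 0.625 and 6.16 RPM in heso1-1. TCP14, a transcription factor of internode growth, held 6.32, 7.57 and 4.54 RPM in urt1-1, against 1.78, 0.715 and 4.71 RPM in heso1-1. The 3 genes again had heso1-1 replicate 3 at or above the lowest urt1-1 library.

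heso1-1 replicates 1 and 2 were below all urt1-1 libraries in 20 of the 23 loci, and heso1-1 replicate 3 was at or above the lowest urt1-1 library in 15. That library was the highest of heso1-1 in 19. The list was chosen for high urt1-1 values, and the shares of all loci with these patterns are not given. These counts are thus a description only. The groups did not overlap in 7 of the 23 loci (30.4%, against 3.07% of all loci upward). AT1G72600 and GER1, both among these, share the same bins. In this group SAG20, a senescence-associated gene, held 23.0, 21.4 and 18.3 RPM in urt1-1, against 7.80, 5.27 and 13.0 RPM in heso1-1, and the cellulase gene GH9B1 held 8.12, 6.22 and 4.93 RPM in urt1-1, against 2.01, 0.894 and 3.98 RPM in heso1-1. The median over the 23 loci was 1.86 without heso1-1 replicate 3, 1.01 without heso1-1 replicate 2 and 1.59 with the library set as a term.

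Not every locus of the list separated the mutants. AGL23, a MADS-box gene of the embryo sac, held 60.6, 35.4 and 36.3 RPM in urt1-1, against 38.3, 45.1 and 26.4 RPM in heso1-1, with Col-0 at 0, 0.137 and 1.01 RPM. The mutants overlapped (log2 fold change 0.25 ± 0.35 SE). AT1G28000 held 33.4, 29.8 and 21.5 RPM in urt1-1, against 17.8, 26.4 and 43.8 RPM in heso1-1, also with overlap and with the higher mean in heso1-1. The locus AT3G22955, listed as lower in urt1-1 than in Col-0 in earlier results, was under the minimum here: it held 0, 0.812 and 0 RPM in urt1-1, against 1.45, 1.25 and 0.724 RPM in heso1-1 and 29.9, 91.4 and 73.5 RPM in Col-0.

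**Figure D5:**
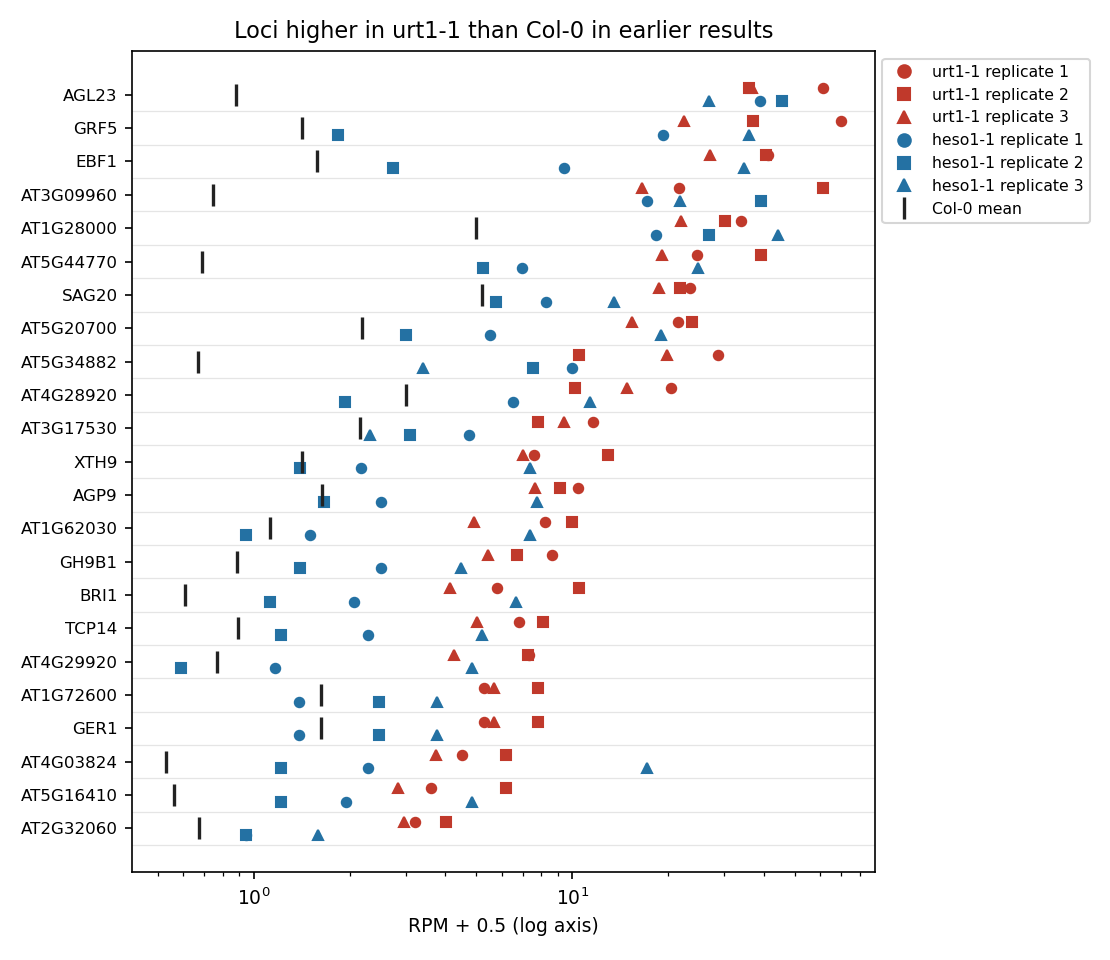
RPM + 0.5 (log axis) of the 23 tested loci that earlier results had higher in urt1-1 than in Col-0, in every urt1-1 and heso1-1 library, with the Col-0 mean as a black bar. Circles and squares of heso1-1 (replicates 1 and 2) lie left of all urt1-1 points in 20 loci, and the heso1-1 triangle (replicate 3) reaches them in 15. The loci were chosen for high urt1-1 values, and the shares over all loci are not given.

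Outside that list, the loci with the smallest p on the urt1-1 side were led by AT1G08950, a tRNA gene, at 3.74, 7.85 and 2.59 RPM in urt1-1, against 0 RPM in all 3 heso1-1 libraries (adjusted p = 0.833 by limma). TPS4, a trehalose-6-phosphate synthase gene, held 10.8, 10.01 and 8.69 RPM in urt1-1, against 3.57, 4.02 and 4.35 RPM in heso1-1, and CWLP, a cell wall protein gene, held 4.90, 4.06 and 4.93 RPM in urt1-1, against 0.557, 1.07 and 2.17 RPM in heso1-1. Neither overlapped between the mutants. On the lower side the smallest p was that of AT2G13400, a transposable element gene, at 0.774, 0.271 and 0.648 RPM in urt1-1, against 3.23, 6.61 and 6.88 RPM in heso1-1 (adjusted p = 0.998 by limma). Of the 21-mers in its bins 91.25% are repeated in the genome.

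Organelle and pollen signals, which could mark a different mix of tissue, overlapped between the mutants. Chloroplast bins held 8.17% ± 2.99 of the listed RPM in urt1-1 and 6.42% ± 1.85 in heso1-1, and mitochondrial bins held 1.05% ± 0.215 in urt1-1 and 1.11% ± 0.403 in heso1-1 (SD, n = 3 each). The 524 chloroplast bins tested had a median log2 fold change of -0.16 and the 200 mitochondrial bins one of -0.17 (0.01 and 0.03 with TMM scaling), with 0 called in either class. miR845, a pollen miRNA family, held 2067, 340 and 1994 RPM in urt1-1, against 2426, 919 and 119 RPM in heso1-1. Its 3 lowest values were those of urt1-1 replicate 2 and heso1-1 replicates 2 and 3, the same library set that had high miR159a. The other pollen miRNA family listed, miR2939, held 5.16, 6.76 and 2.07 RPM in urt1-1, against 1.56, 3.66 and 7.24 RPM in heso1-1. These overlap, and miR2939 was highest in urt1-1 replicate 2 and heso1-1 replicate 3, unlike miR845. Col-0 held 0.09, 0.27 and 0.80 RPM of miR2939, and 2854, 1485 and 1670 RPM of miR845. The part of tissue mix in the differences above was not tested.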

How the data were processed

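Small RNA of inflorescences was extracted with TRIzol, treated with DNase and made into libraries with the NEBNext small RNA kit, per the labels' protocols. The authors deposited 1 table of RPM per 100-bp bin for all 12 libraries, with the features each bin lies in. Which aligner and genome build were used, and where multi-mapping reads were placed, is not stated in the labels or the table. Every deposited RPM value is a whole number of reads within 1e-06 (100% of values). The bins hold part of each library and carry no strand, so overlapping and antisense features, and near-identical MIR copies, cannot be told apart. Of 67482 gene listings on nuclear chromosomes, 99.48% overlap the gene of that name in TAIR10.1.

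Bins with a mean of at least 1 RPM over the 6 libraries were tested with limma 3.58.1 (R 4.3.3) on log2(RPM + 0.5), a scale that understates changes of low bins, with no covariate and Benjamini-Hochberg adjustment at 0.05. Loci were sums over the bins of a gene body. Shares were compared by exact permutation (scipy 1.17.1). The code was checked on simulated data. Alternatives were pseudocounts of 0.1 and 1, no filter and a minimum of 5 RPM, other scalings, a replicate block, all 12 libraries, leaving out each library, and edgeR 4.0.16 and DESeq2 1.42.0 on the recovered reads. The library set as a term and the bins with no repeated 21-mer (a run of 21 bases found more than once in TAIR10.1) were chosen after seeing the data.

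The bins and loci named are those called, those with the smallest p in each class or direction, the 10 most abundant miRNA bins and the members of short lists. miR156h, EBF1, BRI1, TCP14, SAG20, GH9B1, AGL23, AT1G28000, AT3G22955 and AGO1 were named outside that rule, with their values seen. The members and lists were chosen with earlier results of these data known. Limits on 0 cover counting error only, while each SE and SD given rests on the spread between libraries.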

Additional observations from a re-analysis of the deposited data

How the results depend on the processing

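The 2 calls among all bins rested on the settings. The count was 0 with a pseudocount of 0.1, a minimum of 5 RPM, TMM scaling, all 12 libraries in the fit, bins with no repeated 21-mer or edgeR, and 1 with a pseudocount of 1, scaling to the listed sum or the library set as a term. It was 40 with no filter on low values and 33 with DESeq2. Leaving out 1 library gave 0 to 8 bins, with 6 without urt1-1 replicate 2, 8 without heso1-1 replicate 3, which share 0 with the 2, 1 without heso1-1 replicate 2, and 0 for each of the others. Loci gave 11 with DESeq2 and 0 to 2 on leaving out a library: 2 without heso1-1 replicate 2 and 1 without heso1-1 replicate 3. Arm ratios gave 1 with the library set as a term and 0 to 2 on leaving out a library, with 2 without urt1-1 replicate 2. The difference in class share, in percentage points, urt1-1 minus heso1-1, was -1.11 without the 10 most abundant bins for promoters (1.36 with them), 0.634 for intergenic bins (-0.833) and -0.742 for chloroplast bins (1.76). The cause was not tested. Signs were not stable for small differences. The median of all bins changed sign in 4 of 15 alternatives (TMM scaling, the library set as a term, and without urt1-1 replicate 3 or heso1-1 replicate 2), and the difference in class share in 12 of 56, for each class at least once among the 7. Of 2395 alternative values for 144 single bins, loci and arm ratios, 2251 kept their sign and side of the threshold, and 81, over 23 of them, changed sign. The 2 called bins kept theirs throughout (0 changes).

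With the replicate number as a block, 0 bins, 0 loci and 0 arm ratios were called, and 1290 bins had an unadjusted p under 0.05. Deviations of same-numbered libraries correlated at 0.37, 0.28 and -0.24, and those of differently numbered libraries at -0.57 to 0.44. With 3 libraries per mutant these values do not show whether the numbers pair the samples.

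A bin listed at 0 allows up to 3 reads at these depths, and each library set has only 1 or 2 libraries of a mutant.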

Other observations

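Some bins were high in heso1-1 replicates 1 and 2 and low in heso1-1 replicate 3. The intergenic bin chr2_127737 held 0 RPM in all 3 urt1-1 libraries, against 31.4, 26.9 and 1.45 RPM in heso1-1, and Col-0 held 0, 0.137 and 0.201 RPM. It was called without heso1-1 replicate 3 (adjusted p = 0.0112 by limma), and 61.25% of its 21-mers are repeated. The bin chr2_11789 held 0, 0 and 0.13 RPM in urt1-1, against 23.3, 17.3 and 0 RPM in heso1-1, while Col-0 held 114, 100.2 and 99.0 RPM. It was chosen after its values were seen.

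Signals of tRNA genes lay on both sides. AT3G63003 held 4.51, 5.68 and 25.0 RPM in urt1-1, against 32.0, 65.0 and 106 RPM in heso1-1 (log2 fold change -2.72, adjusted p = 0.999 by limma). Over the 264 tRNA loci tested the median log2 fold change was -0.43, against -0.10 over all loci.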
